A study of Mus musculus with 4 samples.

Results

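Olfr1313, Olfr1315, Olfr1316, Olfr1317 and Olfr1318 are neighbouring olfactory receptor genes on mouse chromosome 2. They are 5 of 1413 Olfr symbols among 56980 genes in the single-cell RNA-seq matrices. They were chosen because all 5 were called higher in knockout than in control keratinocytes, so that contrast is described here without a test. Keratinocytes were profiled in 4 libraries of embryonic dorsal skin, labelled E16.5, whereas the study's litter list gives another day. Cells were sorted for Epcam, an epithelial surface protein, and for α6 integrin, a receptor for the basement membrane, with about 1 embryo per library. The 2 Ctrl libraries were Suv39h1 f/f, Suv39h2-/- and Setdb1 f/f, without Cre. In the 2 TKO (triple knockout) libraries these alleles were combined with K14CreERT2, a recombinase that tamoxifen activates and that the keratin 14 promoter expresses in basal keratinocytes. Both groups received tamoxifen, and both lacked Suv39h2. Recombination can be mosaic across cells, and the litter used for sequencing is listed as mosaic.

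Olfactory receptors are G protein-coupled receptors of the nose. Each mature olfactory neuron normally uses 1 receptor gene and keeps the others silent under heterochromatin that carries H3K9me3, the histone mark placed by the enzymes encoded by Suv39h1, Suv39h2 and Setdb1. Receptor genes sit in tandem arrays that grew by local duplication, and keratinocytes are not a site where they are known to serve smell.

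The 5 genes lay within 89.1 kb of GRCm39 chromosome 2, from position 111900433 to 111989502. Olfr1313 (ENSMUSG00000074946, named Or4f60 in GENCODE), Olfr1315 (ENSMUSG00000109033, Or4f14c) and Olfr1316 (ENSMUSG00000109801, Or4f14d) are on the minus strand. Olfr1317 (ENSMUSG00000050776, Or4f47) and Olfr1318 (ENSMUSG00000049758, Or4f62) are on the plus strand. The starts of Olfr1316 and Olfr1317 face away from each other across 5.35 kb. All 5 are annotated as protein coding, and 0 annotated genes overlap any of them. Their transcripts are partly alike: Olfr1315 and Olfr1316 were 98.0% identical over 1169 aligned bases, and Olfr1317 and Olfr1318 were 88.0% identical over 1411 bases. The division of UMIs between Olfr1315 and Olfr1316 is therefore uncertain, whereas their sum depends less on it.

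The 250 bases before the annotated starts also fell into these pairs. The windows of Olfr1315 and Olfr1316 shared an exact stretch of 38 bases, and those of Olfr1317 and Olfr1318 shared 51 bases. Of the 21631 windows of protein-coding genes, 2 held the first stretch and 2 held the other, which are the members themselves. The windows are shown because these members changed together, with the shared stretch in capitals, each read 5′ to 3′ on its gene's strand from the GRCm39 genome.

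The minus-strand windows are chr2:111945786-111946035 for Olfr1315 and chr2:111965323-111965572 for Olfr1316.
Olfr1315: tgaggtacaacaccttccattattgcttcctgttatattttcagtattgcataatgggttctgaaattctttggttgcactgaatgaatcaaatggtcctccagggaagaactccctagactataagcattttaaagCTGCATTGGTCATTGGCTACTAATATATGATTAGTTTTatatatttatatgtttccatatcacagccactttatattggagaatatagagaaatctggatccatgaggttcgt
Olfr1316: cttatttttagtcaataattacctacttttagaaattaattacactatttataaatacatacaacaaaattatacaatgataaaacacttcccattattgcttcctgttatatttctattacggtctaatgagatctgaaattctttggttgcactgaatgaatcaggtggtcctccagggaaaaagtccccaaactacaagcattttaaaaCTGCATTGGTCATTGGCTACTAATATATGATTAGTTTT
The plus-strand windows are chr2:111970424-111970673 for Olfr1317 and chr2:111984293-111984542 for Olfr1318.
Olfr1317: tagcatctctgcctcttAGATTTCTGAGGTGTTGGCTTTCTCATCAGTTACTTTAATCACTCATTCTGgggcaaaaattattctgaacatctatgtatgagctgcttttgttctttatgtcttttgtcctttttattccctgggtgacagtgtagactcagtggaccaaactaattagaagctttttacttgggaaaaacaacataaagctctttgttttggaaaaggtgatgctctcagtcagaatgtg
Olfr1318: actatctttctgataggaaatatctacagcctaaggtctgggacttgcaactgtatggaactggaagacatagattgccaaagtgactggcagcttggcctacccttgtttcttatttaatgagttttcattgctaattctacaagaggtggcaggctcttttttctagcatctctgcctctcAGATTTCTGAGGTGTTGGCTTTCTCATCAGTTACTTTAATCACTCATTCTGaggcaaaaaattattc

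The shared stretch sat at different distances from the annotated starts. It ended 76 bases before the start of Olfr1315 and 1 base before that of Olfr1316, and it ended 183 bases before the start of Olfr1317 and 17 bases before that of Olfr1318. The Olfr1313 window shared at most 9 bases with any other member's window. Searched on both strands, the TATA-box letters TATAAA occurred in 2 of the 5 windows (Olfr1315 and Olfr1316), compared with 29.2% of 1193 Olfr windows and 12.5% of all 21631. In Olfr1315 they lay only on the opposite strand. The only match on a gene's own strand was in Olfr1316, at -201 to -196 from its annotated start. The homeodomain letters TAATTA occurred in 2 of 5 (Olfr1316 and Olfr1317), compared with 22.4% and 5.68%. CCCNNGGG, a core of sites for the EBF factors of olfactory neurons, occurred in 0 of 5, compared with 13.4% and 11.7%. These matches are descriptions of letters in a window and not of bound sites.

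Total depth was 70749496 to 89655247 UMIs per library, a UMI being a molecular identifier that counts each captured molecule once. After cells were filtered on detected genes, mitochondrial share and doublets, 9197 of 10764 cells were keratinocytes, with 52751376 to 68217471 UMIs per library. Median depth per keratinocyte was lower in Ctrl (21963 and 17329 UMIs) than in TKO (30069 and 28068 UMIs). Libraries shared between 2 and 12 cell barcodes per pair. Among the targeted genes, Setdb1 was 63.1 ± 6.87 CPM (counts per 1000000 UMIs) in Ctrl and 41.0 ± 2.09 in TKO (SD, n = 2 libraries per group), with an adjusted p of 0.0513 in edgeR's quasi-likelihood test. Suv39h1 and Suv39h2 did not pass that test either. Suv39h2, which both groups lack by label, was counted in every library (Ctrl libraries 957 and 979 UMIs, TKO libraries 1183 and 868), so its counts do not check the allele. In general 3′ counts may lie outside the deleted exons, so this only partly checks the labels.

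In keratinocytes the 5 receptors together went from 1 UMI in each Ctrl library to 108 and 86 UMIs in the TKO libraries. Their summed level was 0.0147 and 0.0175 CPM in Ctrl and 2.05 and 1.59 CPM in TKO, so every TKO library lay above both Ctrl libraries. The ratio of pooled levels was 114, with a 95% interval of 31.1 to 947 that gives the counting precision at 2 Ctrl UMIs and is no test, since the members were chosen on this contrast. Over all genes, 772 of 19989 tested were called higher in TKO (3.86%, edgeR adjusted p under 0.05), and all 5 members were among them because they were chosen that way.

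The minus-strand Olfr1313 had no UMI in Ctrl, whereas the TKO libraries gave 13 and 10. Olfr1315 was likewise at 0 in Ctrl, with 11 and 12 UMIs in TKO. Olfr1316 gave 0 and 1 in Ctrl and 34 and 23 in TKO, the highest count of the run in both TKO libraries. On the plus strand, Olfr1317 was at 0 in both Ctrl libraries, against 25 and 22 UMIs in TKO. Olfr1318 gave 1 and 0 in Ctrl and 25 and 19 in TKO. Both TKO libraries lay above both Ctrl libraries for each member, as their selection implies, and the same held for 29.1% of all genes tested.

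Against a floor of 3 counts over the Ctrl group, Olfr1313 and Olfr1315 were at least 9.0-fold higher in TKO and Olfr1317 at least 18.4-fold higher. Where Ctrl had 1 count, the ratio was 66.9 for Olfr1316 (interval 11.5 to 2689) and 51.7 for Olfr1318 (8.80 to 2086), where the intervals likewise give counting precision and no test. Because each library counts 3′ ends, levels were not divided by length. In that unit TKO means ran from 0.535 ± 0.156 CPM for Olfr1316 through 0.440 ± 0.0479 for Olfr1317 and 0.412 ± 0.0870 for Olfr1318 to 0.216 ± 0.0437 for Olfr1313 and 0.215 ± 0.00923 for Olfr1315 (SD, n = 2). Neighbours within the upper group of 3 differed by less than their spread, as did the lower pair, whereas each of the upper 3 exceeded both of the lower 2 in each TKO library.

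**Figure D1:**
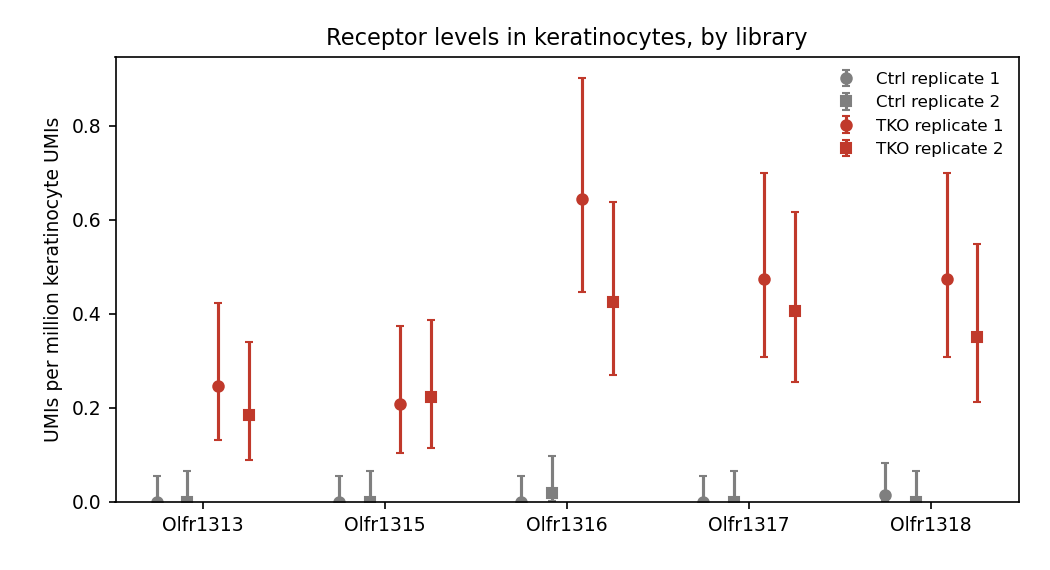
Level of each receptor gene in keratinocytes, in CPM (counts per 1000000 keratinocyte UMIs), for the 2 Ctrl (grey) and 2 TKO (red) libraries, with 95% Poisson intervals as bars. Olfr1316 reached 34 and 23 UMIs in the TKO libraries, and no gene had more than 1 UMI in a Ctrl library.

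The run stood at the end of a larger array. The array, defined by gaps under 1 Mb, held 46 Olfr symbols over 0.938 Mb, and the 5 members held 194 of its 256 TKO keratinocyte UMIs (75.8%). Olfr1312 and Olfr1314, the symbols next to or within the run, were just outside the selection because they did not pass the expression filter. Olfr1312 was at 0 in both Ctrl libraries, with 12 and 9 UMIs in TKO, close to the counts of Olfr1313. Olfr1314, which lies between Olfr1313 and Olfr1315, gave 0 and 0 in Ctrl and 7 and 3 in TKO.

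Counts thinned out on both sides. The pseudogene Olfr1319-ps1, the only array symbol past the run, gave 3 and 5 UMIs in TKO, and before it Olfr1310 gave 2 and 4 and Olfr1311 gave 1 and 6, with 0 in Ctrl for all 3. Olfr1310, Olfr1311, Olfr1312, Olfr1314 and Olfr1319-ps1 together had 52 TKO UMIs and 0 Ctrl UMIs. The remaining 36 array symbols had 10 TKO UMIs and 4 Ctrl UMIs. Olfr1307, 140 kb before the run, was the one nearby symbol seen in both Ctrl libraries, with 1 and 3 UMIs there, beside 1 and 6 from the TKO libraries. Olfr1301, Olfr1303 and Olfr1305 had 1 UMI each, in TKO replicate 1.

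Genes of other kinds around the run were tested without regard to the choice of members. Of 22 within 500 kb, 10 could be tested and 0 were called in either direction in edgeR, against 6.07% of all genes tested. None had an unadjusted p under 0.05 (0 of 10 in edgeR, 0 of 13 in DESeq2). The nearest of those tested was Lpcat4, a phospholipid acyltransferase gene 80.2 kb past the run, where Ctrl gave 71 and 96 UMIs and TKO 120 and 115 (log2 difference 0.68, adjusted p = 0.243, edgeR).

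**Figure D2:**
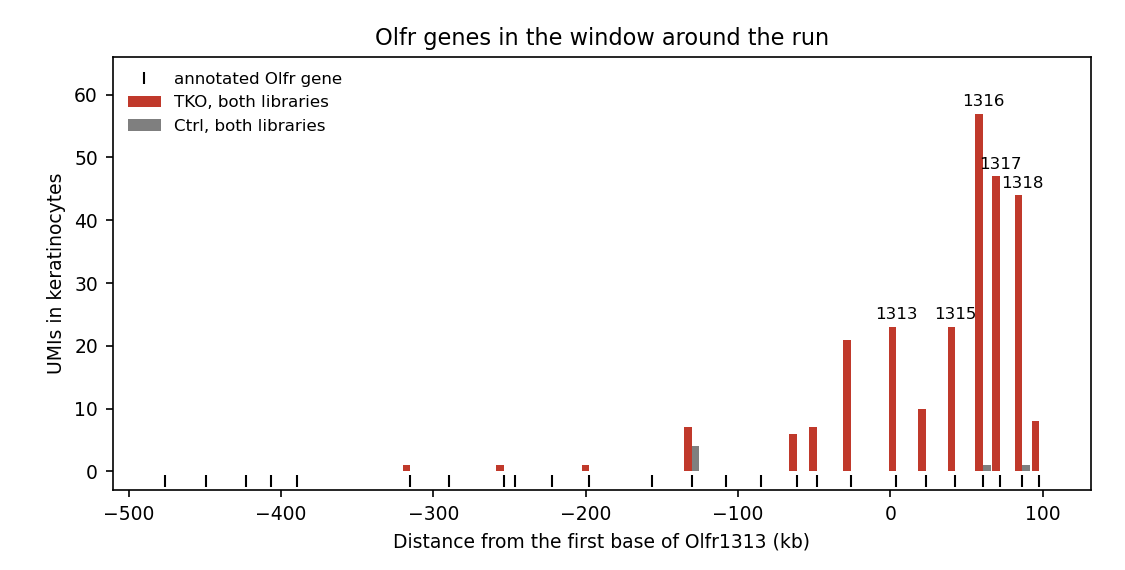
UMIs in keratinocytes of every annotated Olfr gene in the window, summed over the 2 TKO (red) and the 2 Ctrl (grey) libraries, against distance from the first base of Olfr1313 in kb; ticks mark genes. Counts peak at Olfr1316 with 57 TKO UMIs, and genes more than 150 kb before the run had at most 1.

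Across the other 1408 Olfr symbols, 217 had a UMI in keratinocytes and 21 could be tested. Of these, 7 rose in TKO and 0 fell in edgeR. Of the 7, 5 had no Ctrl UMI and passed the expression filter through their TKO counts, so their share of those tested is not compared with that of all genes. Without the filter, 7 of 217 were called higher (3.23%), beside 1.68% of all genes, and DESeq2 called 8 of 217 higher (3.69%), beside 4.27% of all genes, and 0 lower. At an unadjusted p under 0.05, 8 of the 21 were higher and 1 lower. Without Ctrl replicate 1, and likewise without Ctrl replicate 2, 3 rose, and with cells thinned to 5000 UMIs, where fewer genes could be tested, 0 did. Those that rose were Olfr814, Olfr417, Olfr1388, Olfr416-ps1, Olfr791, Olfr1504 and Olfr1501, on chromosomes 1, 10, 11 and 19. Their summed level over all other Olfr symbols was 5.98 and 8.45 CPM in Ctrl and 15.7 and 14.1 CPM in TKO. The run thus made up 0.245% and 0.206% of all Olfr UMIs in Ctrl and 11.5% and 10.1% in TKO.

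Some receptors elsewhere were as rare in Ctrl as the members. Olfr417 was at 0 in both Ctrl libraries, against 76 and 50 UMIs in TKO (adjusted p = 0.0158, edgeR), more than any member. In all, 8 symbols outside the run had 0 UMIs in both Ctrl libraries and 5 or more in each TKO library. The array neighbour Olfr1312 was among them. Of the members 3 of 5 showed this pattern, which their choice on the same contrast favours. Its share over all genes was not computed. Olfr1033 had among the highest TKO counts without being called, where Ctrl gave 12 and 28 UMIs and TKO 114 and 9. Its direction turned without TKO replicate 1, at -0.945 on the log2 scale.

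No gene of the machinery that olfactory neurons use was called higher. Of 35 genes of odour signalling and receptor choice, 23 were tested in edgeR, 0 rose and 4 fell, beside 3.86% and 2.21% of all genes tested. At an unadjusted p under 0.05, 1 was higher and 7 were lower, and DESeq2 called 0 higher and 5 lower. Those that fell included Pde1c, which breaks down cyclic nucleotides (log2 difference -5.59), and the transcription factor genes Ebf3 (-2.56) and Ebf4 (-1.83). Ebf3 and Ebf4 lost their call without either Ctrl library. In Ctrl, 95.2% and 88.3% of Pde1c UMIs lay in a small cluster led by Ccer2, whose Ctrl cells carried Merkel cell markers. The 8 Merkel cell markers together were also lower in TKO and stood at 67.7 to 72.6 CPM in Ctrl keratinocytes, against 15.7 to 27.2 CPM in TKO. Outside that cluster Pde1c stood at 0.621 and 1.42 CPM in Ctrl and 0.330 and 0.149 CPM in TKO. Of Ebf3, 83.3% and 21.0% of Ctrl UMIs lay in the cluster, and of Ebf4 2.81% and 1.05%. The part of these cells in the counts of the odour list was not tested. Markers of olfactory sensory neurons were low. Of 8, only Stoml3 could be tested and it was not called (Ctrl libraries 37 and 44 UMIs, TKO libraries 36 and 30). Neurod1 stood at 26 UMIs in TKO replicate 1, beside 1 to 3 in the other libraries, and was not tested. Rtp1, which carries receptors to the surface, was at 0 in all 4 libraries, and Omp had 4 and 3 UMIs (Ctrl) and 2 and 2 (TKO). Their summed level ranged from 0.733 to 0.925 CPM in Ctrl and from 0.720 to 1.40 CPM in TKO.

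Among TKO keratinocytes the run was spread over the main classes at a low level. Basal-like cells, which express Krt5 and Krt14, held 37 and 19 run UMIs (1.12 and 0.684 CPM). Differentiating-like cells, with Krt1 and Krt10, held 13 and 7 (1.57 and 0.498 CPM). Hair follicle-like cells, with markers such as Lhx2 and Edar, held 6 and 6 (0.749 and 0.584 CPM). In Ctrl the 3 classes held 1 UMI in each library, both in basal-like cells. Classes were formed without any Olfr symbol and without genes called between genotypes.

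These class differences were not detectable at this depth. No member passed the expression filter of the class test, in which 51.3%, 22.8% and 59.1% of all genes were called in the 3 contrasts. In edgeR without that filter, 0 of 15 member contrasts were called and 0 had an unadjusted p under 0.05, beside 28.2%, 15.5% and 32.3% of all genes called in the 3 contrasts; DESeq2 also gave 0 and 0. Between differentiating-like and basal-like cells, log2 differences of the members ran from -0.18 to 0.43 with SE from 1.0 to 1.54. Olfr1313, seen in no hair follicle-like cell, had the widest errors. Its hair follicle-like level differed by -4.27 from basal-like (SE 2.98, adjusted p = 0.512, edgeR). From differentiating-like it differed by -4.425 (SE 3.195, adjusted p = 0.379, edgeR).

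A pair of small clusters had a high level of the run in both TKO libraries. The first was led by Psca, Mal, Krt4, Upk1b, Krt19 and Krt13 and held 1 and 2 cells of Ctrl and 37 and 26 cells of TKO. It stayed unnamed, since no class met the marker criteria for a name there. With at least 3000 genes per cell, the Psca-led cluster was named Merkel, with 4 of the fixed markers detected. Run UMIs there numbered 30 and 33 in the TKO libraries, at 26.5 CPM (interval 17.9 to 37.8) and 42.5 CPM (29.2 to 59.6). Single cells held 17 and 14 of these, and without them the level was 11.6 CPM (6.17 to 19.8) and 25.9 CPM (15.6 to 40.4). Intervals treat UMIs as independent and do not cover this spread between cells.

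The second was led by Ccer2, Nrxn3 and Krt8 and took in 34 and 25 cells from Ctrl and 33 and 20 from TKO. At least 3 of 8 Merkel cell markers were found in 34 of 34 and 24 of 25 Ctrl cells, and in 3 of 33 and 1 of 20 TKO cells, so the Merkel-like name does not suit its TKO cells. With libraries aligned, the TKO cells of the Ccer2-led cluster held 20 and 21 run UMIs, at 15.9 CPM (9.69 to 24.5) and 34.9 CPM (21.6 to 53.3). Without the highest cell of each library, these were 12.3 and 21.6 CPM. Its Ctrl cells held 0 and 0, which allows up to 5.89 and 9.71 CPM.

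In the remaining TKO keratinocytes the level was 1.15 and 0.606 CPM. A basal-like cluster led by Kcnq5 was also high in TKO replicate 1, with 8 UMIs in 43 cells (14.6 CPM), but not in TKO replicate 2, with 1 UMI in 35 cells (1.56 CPM). Together the clusters led by Psca and Ccer2 held 104 of the 194 run UMIs (53.6%) in 116 of 3366 TKO keratinocytes (3.45%), 46.3% in TKO replicate 1 and 62.8% in TKO replicate 2. Their median depth per TKO cell was 27700 to 34410 UMIs, near the 30030 and 27980 of the other cells. This share was computed after the levels were seen. In 3 other settings the clusters were drawn differently. With at least 3000 genes per cell, the 2 highest were again a Psca-led cluster (38 run UMIs in 69 TKO cells) and a basal cluster, with 38.9% of run UMIs in 6.32% of cells. Neither Psca nor Ccer2 led the 2 highest with doublets kept (34.4% in 2.31% of cells) or with libraries not aligned (69.1% in 23.5% of cells). In the latter setting an unnamed cluster held 130 run UMIs in 749 TKO cells (5.85 CPM), beside 2 and 1 Ctrl cells. Its leading genes included Myh15, 1700030N03Rik, Anks1b and Npffr1. The 7 raised receptors elsewhere had 22 and 8 UMIs in the Psca-led cluster (19.4 and 10.3 CPM) and 12 and 4 in the Ccer2-led cluster (9.52 and 6.64 CPM), against 6.02 and 4.83 CPM in the remaining cells. The 5 array neighbours had 5 and 12 UMIs in the Psca-led cluster (4.41 and 15.4 CPM) and 2 and 8 in the Ccer2-led cluster (1.59 and 13.3 CPM), against 0.357 and 0.133 CPM elsewhere. All other Olfr symbols, the 7 included, stood at 35.3 and 41.2 CPM in the Psca-led cluster and 17.45 and 76.4 in the Ccer2-led cluster. In the remaining cells they stood at 14.7 and 12.5 CPM. Several of these levels rest on few UMIs.

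**Figure D3:**
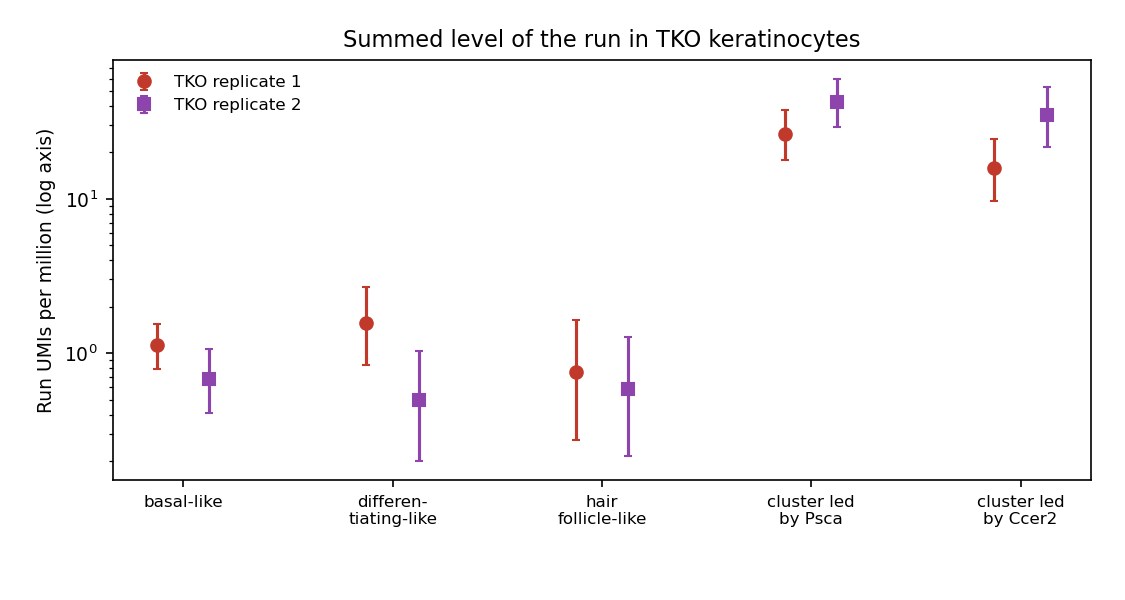
Summed level of the run in TKO keratinocytes, in CPM on a log axis, by class and for the clusters led by Psca and Ccer2, for TKO replicate 1 (red circles) and TKO replicate 2 (purple squares) with 95% Poisson intervals. The Psca-led cluster reached 26.5 and 42.5 and the Ccer2-led cluster 15.9 and 34.9, while the 3 classes lay between 0.498 and 1.57.

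Few cells carried a member at all. Without thinning, 76 of 1576 keratinocytes in TKO replicate 1 (4.82%) and 46 of 1790 in TKO replicate 2 (2.57%) had a run UMI, compared with 1 of 2842 and 1 of 2989 in Ctrl. With every cell thinned to 5000 UMIs, the shares were 13 of 1572 (0.827%, 95% Clopper-Pearson interval 0.441 to 1.41) and 10 of 1783 (0.561%, 0.269 to 1.03), against 1 of 2819 and 0 of 2951 in Ctrl. These come from 1 random draw. Averaged over all possible draws the TKO shares were 1.05% and 0.714%, and with doublets kept 1.06% and 0.668%. Other cell types of the TKO libraries, in which the promoter of the Cre is not known to be active, had 0 of 517 and 0 of 586 at that depth, which allows up to 0.580% and 0.512% by a limit of 3 counts. Their Clopper-Pearson intervals reached 0.711% and 0.628%, the latter above the keratinocyte share of TKO replicate 2 in that draw and below its average over draws. Unthinned, they had 1 of 519 and 1 of 593.

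Most positive cells held a single UMI, 64 in TKO replicate 1 and 32 in TKO replicate 2. At the other end, 2 and 3 cells with 5 or more held 22 and 30 UMIs. The highest cell of TKO replicate 1, in the Psca-led cluster, held 17 run UMIs among 10945, from 4 members (2 of Olfr1313, 1 of Olfr1315, 8 of Olfr1316 and 6 of Olfr1317). That of TKO replicate 2, in the same cluster, held 14 among 43331, from all 5 members. Without these cells the run stood at 1.73 and 1.33 CPM, and the clusters led by Psca and Ccer2 held 36.3% and 55.6% of it.

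Members were found in the same cells more often than their separate shares would give. In TKO keratinocytes, 9 and 12 cells held 2 or more members. Over the 10 member pairs there were 44 cell and pair combinations, against 14.9 expected from the shares within the same library, class and depth group (ratio 2.96). The ratio was 2.38 in TKO replicate 1 and 3.43 in TKO replicate 2. At 10000 UMIs per cell there were 11 against 1.80 expected (ratio 6.12).

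By pair, Olfr1316 with Olfr1317, the divergent neighbours, and Olfr1317 with Olfr1318 were each found together in 7 cells, with 3.11 and 2.68 expected. Olfr1313 with Olfr1315 were together in 5 cells, with 0.372 expected, the highest ratio of the 10 pairs (13.4). These cells included the highest cell of each TKO library and the second highest of TKO replicate 2. Olfr1316 with Olfr1318 gave the lowest (1.27), with 4 cells against 3.14 expected. Pairs on the same strand gave a ratio of 4.07 and pairs on opposite strands 2.40, both with few cells. A member together with 1 of the 7 raised receptors elsewhere was seen 61 times against 33.6 expected (ratio 1.82). With clusters in place of classes, a choice made after seeing the data, the ratio within the run was 2.29 and that with receptors elsewhere 1.61. A cell with several members counts in several pairs, so the pairs are not independent. The highest cell of each TKO library gave 6 and 10 of the 44, and the second highest 3 and 6. Without these 4 cells, 19 combinations remained against 8.59 expected (ratio 2.21, 95% Poisson interval 1.33 to 3.46, which takes the pairs as independent). The ratio of opposite-strand pairs was then 1.52 (0.694 to 2.88).

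The cells with a member also tended to be those with other genes raised in TKO. Npffr1, Gm11884, Col28a1 and 1700030N03Rik were taken from an earlier description of these data as genes raised in TKO. Keratinocytes were grouped by how many of the 4 were detected at 5000 UMIs per cell. In TKO replicate 1 the run stood at 0.887 CPM with none detected (1169 cells), 5.25 with 1 (314 cells) and 6.42 with 2 or more (89 cells). In TKO replicate 2 it stood at 0.751 (1247 cells), 1.62 (370 cells) and 7.42 (166 cells). Both libraries went up with the number detected, and median depth in these groups was 26670 to 30360 UMIs.

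Detection of the 4 genes was also concentrated in the Psca-led cluster, at 1367 and 2669 CPM in sum against 156 and 230.5 CPM in the remaining TKO keratinocytes. In the Ccer2-led cluster it was 385 CPM in TKO replicate 1 and 108 CPM in TKO replicate 2, where the run was nevertheless high.

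**Figure D4:**
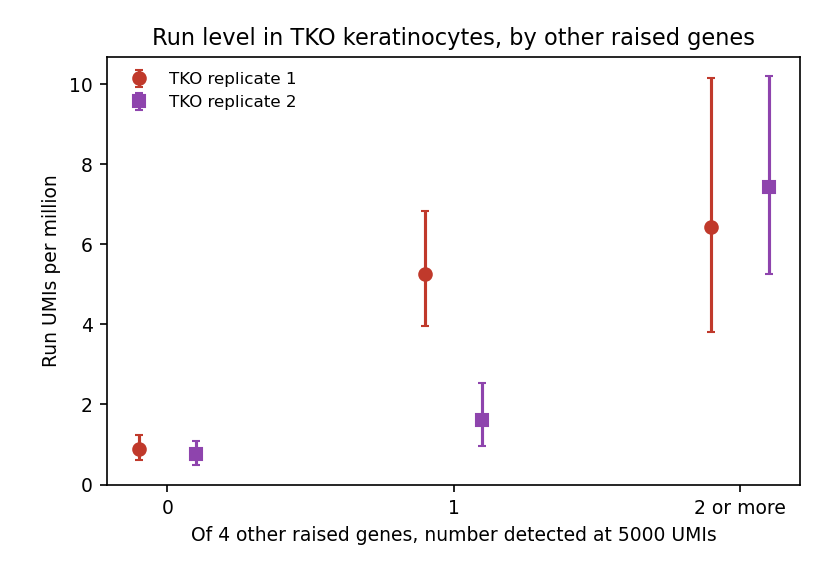
Summed level of the run in TKO keratinocytes, in CPM, by how many of Npffr1, Gm11884, Col28a1 and 1700030N03Rik were detected at 5000 UMIs per cell, with 95% Poisson intervals. The level went from 0.887 to 6.42 in TKO replicate 1 (red circles) and from 0.751 to 7.42 in TKO replicate 2 (purple squares).

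Genes whose pattern was most like that of the run were ranked over 29 sums of TKO keratinocytes per library and cluster. By Pearson's r of log2(CPM + 1), the first 5 of 19984 genes were Jph2 (0.93), which holds junctional membranes together in muscle, the zinc finger gene Zfp811 (0.91), Klhl26 (0.90), the cell adhesion gene Igsf9b (0.89) and Cpt1c (0.89), a brain form of carnitine palmitoyltransferase. The sums share libraries and depth, and 5 of them held no run UMI. All 3 sums in which the run was above 10 CPM came from TKO replicate 1, and without them r of these genes was 0.49 to 0.65. In TKO replicate 2 both clusters of high level had fewer than 30 cells and did not enter.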

How the data were processed

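Single-cell suspensions of 2 Ctrl and 2 TKO embryos were sorted and prepared by the authors with the 10x Genomics 3′ v3 kit. The authors deposited 1 filtered matrix of raw UMI counts per library, not normalized. The file headers name Cell Ranger 7.1.0 (the methods give a different release), and the genome was GRCm39. The annotation and whether intronic reads counted are not given in the sources used here, and reads that map to several genes are normally left out by this counter, which affects near-identical receptors. Genes were placed by gene ID with GENCODE annotation.

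Cells with at least 2000 genes and at most 10% mitochondrial UMIs were kept, and a simulated-doublet score removed an expected 0.8% per 1000 barcodes. Libraries were aligned and clustered (Leiden, resolution 1, scanpy 1.11.5), at first with no gene left out, to tell keratinocytes from other cells. Keratinocytes were then aligned and clustered again without Olfr symbols or genes called between genotypes. Classes were named from fixed markers. Each library gave 1 sum over keratinocytes, and sums were compared with edgeR 4.0.16 (quasi-likelihood, TMM factors, filterByExpr, Benjamini-Hochberg over all genes, R 4.3.3). In TKO libraries, classes were compared with library as a term. DESeq2 1.42.0 was an alternative. Tested on simulated data for the genotype comparison (20007 genes), the fit recovered 74.0% of 2-fold and 100.0% of 4-fold changes, and for the class comparison (15473 genes) 80.0% and 100.0%, with 13 and 6 false calls in all.

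CPM (counts per 1000000) is relative to all UMIs of the same cells. Intervals (95%) are exact Poisson, Clopper-Pearson or exact conditional, and they and the floor of 3 counts cover counting error only. With 2 libraries per group, p-values measure the spread between these libraries. Co-detection was compared with the product of shares within library, class and depth group (3 groups of equal size). Upstream windows of 250 bases and their longest shared stretch were read from the genome, and transcripts were aligned with blastn over at least 500 bases. Named genes were the members, genes within 500 kb (Olfr symbols and called genes), Olfr symbols elsewhere that were called or among the 5 with most TKO UMIs, called genes of the odour list, the 5 most alike, the 4 raised genes and the targeted genes, while Lpcat4 was named after its values were seen. The members and lists were chosen with earlier results of these data known. By their labels, same-numbered libraries shared only a number, and whether they shared anything else was not known. One called gene of the odour list is not reported here.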

Additional observations from a re-analysis of the deposited data

Results flagged for a closer look

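Run UMIs were also found in barcodes that the cell filters removed. The removed TKO barcodes held 26 (17 in 1709 barcodes of TKO replicate 1 and 9 in 2174 of TKO replicate 2), at 2.56 and 0.938 CPM, whereas the removed Ctrl barcodes (2591 and 2551) held 0. In cells that were not keratinocytes the TKO libraries held 2 run UMIs, 1 in each, against 1 in Ctrl, at 0.0880 and 0.0775 CPM in TKO. Both were noted because they lie outside the cells compared.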

How the results depend on the processing

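The direction of the run between genotypes was fixed by the choice of members. Its TKO mean of 1.82 CPM was 0.879 without the clusters led by Psca and Ccer2 (chosen after seeing the data) and 1.59 to 2.05 without 1 TKO library, and its Ctrl mean of 0.0161 was 0.0355 at 5000 UMIs per cell. The share of TKO keratinocytes with a run UMI (mean 0.694%) was 1.92% at 10000 UMIs, 3.70% unthinned and 1.10% with doublets kept. The last is another random draw, and averaged over all draws (added after seeing the data) the share was 0.882%, and 0.865% with doublets kept. The co-detection ratio of 2.96 was 6.12 at 10000 UMIs, 4.14 with doublets kept, and 2.21 without the highest cell, or the 2 highest, of each TKO library (added after seeing the data). The share of run UMIs in the 2 highest clusters (53.6%, in 3.45% of cells) was 38.9%, 34.4% and 69.1%, in clusters drawn anew with 6.32%, 2.31% and 23.5% of cells, with at least 3000 genes, with doublets kept and without alignment. All 5 members were called in the genotype fit that chose them, against 0 at 5000 UMIs per cell, where they failed the expression filter, 3 by DESeq2 and without the filter, and 0, 0, 2 and 3 without Ctrl replicate 1, Ctrl replicate 2, TKO replicate 1 and TKO replicate 2. Members were tested between classes only without the expression filter and by DESeq2 (5 members each) and without TKO replicate 2 (1 member, a value with no test), so the 0 calls in other settings say nothing of stability.

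Over all genes 772 rose and 441 fell, compared with 1453 and 1011 by DESeq2, 445 and 275 at 5000 UMIs, and, without 1 library, 256 to 1455 and 119 to 960 (fewest without Ctrl replicate 2, most without TKO replicate 2). The 7 Olfr symbols elsewhere that rose became 3 to 8 without 1 library and 0 at 5000 UMIs, where fewer genes were tested. In the odour list, without 1 library, 0 to 2 rose and 2 to 6 fell. Same-numbered libraries deviated in opposite directions (correlation -0.261). A replicate block gave 456 and 254 calls, and 3 members, and the crossed pairing, added after seeing the data, gave 2090 and 1731 with 1 raised and 7 lowered in the odour list. Olfr1033 (1.78) reversed without TKO replicate 1 (-0.945) and was 2.69 without TKO replicate 2. Setdb1 passed by DESeq2 (adjusted p = 0.00341). For named genes outside the run, 210 of 232 values under alternatives kept direction and call, a further 8 could not be tested, 7 of them of genes called in the main comparison, and causes of the changes were not tested.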

Other observations

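Other chemoreceptor families were measured in the same keratinocytes. Vomeronasal type 1 receptor symbols (Vmn1r, 350) had 107 and 70 UMIs (Ctrl) and 185 and 208 (TKO), or 1.57 and 1.22 CPM against 3.51 and 3.84 CPM, and of 3 that could be tested in edgeR 1 rose and 0 fell. Vomeronasal type 2 symbols (Vmn2r, 242) stood at 4.79 and 4.29 CPM in Ctrl and 8.85 and 6.72 in TKO, with 2 of 8 raised and 0 lowered. Taste receptor symbols (43) stood at 0.308 and 0.436 CPM in Ctrl and 2.16 and 1.26 in TKO, with 1 of 1 raised. Over all genes tested 3.86% were raised, but rare symbols can pass the expression filter through their TKO counts. Without the filter, edgeR called higher 1 of 47 Vmn1r (2.13%), 2 of 81 Vmn2r (2.47%) and 1 of 8 taste receptor symbols (12.5%), beside 1.68% of all genes. DESeq2 called as many of each family higher, beside 4.27% of all genes. Trace amine-associated receptors (Taar, 16) had 0 UMIs in all 4 libraries, below the floor of 3 counts in each.

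Raised receptors elsewhere also came as neighbours. Olfr417 (GRCm39 chromosome 1, 174192688 to 174202038) and Olfr416-ps1 (174202113 to 174203249) lie on the same strand and gave 76 and 50 and 47 and 41 UMIs in TKO with 0 in Ctrl. Olfr1501 (chromosome 19, 13812397 to 13828056) and Olfr1504 (13864284 to 13875292) gave 17 and 14 and 23 and 18 UMIs in TKO, with 0 in Ctrl. Whether such neighbours are found in the same cells was not tested.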
